A study of Homo sapiens with 6 samples.

Results

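Expression of PDZK1IP1, of its binding partner PDZK1, and of STIL, CMPK1 and TAL1, which flank PDZK1IP1 in band 1p33 of chromosome 1, was examined in DU145 cells with and without overexpression of the circular RNA circCSPP1. These are 5 of the 19727 genes in the deposited table. PDZK1IP1 was chosen on its measured values, since it had the lowest log2 fold change of all tested genes in this same comparison, so its values are given as a description with no test. The other members were chosen for their position or binding, with earlier results of these data known. DU145 cells are a long-established line from a human prostate carcinoma. The labels name DU145 and prostate for every sample, although their RNA extraction text speaks of adipose tissue. In the lentivirus-NC group it carried the control lentivirus, and in the lentivirus-circCSPP1 group a lentivirus encoding circCSPP1. Both groups were stable lines kept after puromycin selection, and each had 3 libraries of polyadenylated RNA. The labels do not say that libraries came from separate cultures, so the p-values measure only the spread between these libraries, which may be technical.

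PDZK1IP1, also known as MAP17, is a small membrane protein whose tail binds PDZ domains, and it is best known from the apical membrane of kidney tubule cells and from carcinomas. PDZK1 is a cytoplasmic scaffold with several PDZ domains that gathers transporters and receptors, together with PDZK1IP1, beneath that membrane. The genes next to PDZK1IP1 have unrelated roles: STIL builds new centrioles, CMPK1 phosphorylates UMP and CMP in nucleotide synthesis, and TAL1 is a transcription factor of blood cell precursors. In T-cell leukaemia a deletion that joins STIL to TAL1 places TAL1 under the STIL promoter.

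In GRCh38 (GENCODE release 29), PDZK1IP1 (ENSG00000162366) lies at chr1:47183593-47191044 on the minus strand. TAL1 (ENSG00000162367) follows at chr1:47216290-47232220 on the minus strand, with a gap of 25.2 kb. STIL (ENSG00000123473) lies at chr1:47250139-47314147 on the minus strand, 59.1 kb from PDZK1IP1. CMPK1 (ENSG00000162368) lies at chr1:47333797-47378839 on the plus strand, 142.8 kb away. The order on the chromosome is therefore PDZK1IP1, TAL1, STIL and CMPK1. PDZK1 (ENSG00000174827) is on the other arm of the same chromosome, in 1q21, at chr1:145670852-145708148 on the minus strand.

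The promoters of PDZK1IP1, PDZK1 and STIL are shown because they set the gene described here beside its partner and its nearest expressed neighbour, and because they differ in CG dinucleotides, the sites of DNA methylation in promoters. Each is the RefSeq window (GRCh38.p14) of 250 bases before and 50 after the annotated start, written 5′ to 3′ on the gene's strand with each CG in capitals. The windows are chr1:47189987-47190286 for PDZK1IP1, chr1:145707351-145707650 for PDZK1 and chr1:47314098-47314397 for STIL, all on the minus strand. The RefSeq start of PDZK1IP1 lies inside the GENCODE span of the gene.
PDZK1IP1: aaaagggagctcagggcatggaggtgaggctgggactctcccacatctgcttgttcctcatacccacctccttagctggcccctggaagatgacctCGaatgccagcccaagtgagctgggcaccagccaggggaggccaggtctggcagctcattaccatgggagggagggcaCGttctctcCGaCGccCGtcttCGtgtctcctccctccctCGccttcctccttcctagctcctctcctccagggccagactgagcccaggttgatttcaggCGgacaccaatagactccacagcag
PDZK1: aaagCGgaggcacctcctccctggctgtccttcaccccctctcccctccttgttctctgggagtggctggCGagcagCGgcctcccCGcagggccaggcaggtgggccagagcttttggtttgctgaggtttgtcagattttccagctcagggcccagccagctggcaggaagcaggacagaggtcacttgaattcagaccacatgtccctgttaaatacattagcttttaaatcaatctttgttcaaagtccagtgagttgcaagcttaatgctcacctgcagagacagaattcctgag
STIL: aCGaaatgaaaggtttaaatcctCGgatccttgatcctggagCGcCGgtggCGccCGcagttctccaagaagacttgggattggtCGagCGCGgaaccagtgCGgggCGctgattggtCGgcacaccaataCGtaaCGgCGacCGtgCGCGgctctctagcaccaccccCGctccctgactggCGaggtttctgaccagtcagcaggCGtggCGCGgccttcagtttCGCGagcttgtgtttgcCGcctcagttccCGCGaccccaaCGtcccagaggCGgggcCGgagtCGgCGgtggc

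The PDZK1IP1 window held 8 CG and the PDZK1 window 4, against 33 in STIL, 25 in CMPK1 and 30 in TAL1. The median over 35116 RefSeq promoters of this length was 14. Of these promoters, 41.6% held no more CG than that of PDZK1IP1, 29.6% no more than that of PDZK1 and 84.4% no more than that of STIL. PDZK1IP1 and PDZK1 thus lay on the CG-poor side of the median and the other members on the CG-rich side. Methylation was not measured here.

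The windows were searched on both strands for AP-1 (TGANTCA), EGR1 (GCGNGGGCG), TATA box (TATAAA) and E-box (CANNTG). The E-box form CAGCTG, the GATA motif, spelled AGATAA, and NF-kB were also searched. CAGCTG is one form of CANNTG, so its matches count under both. The PDZK1IP1 window held an NF-kB match, GGGACTCTCC at -219 from the start site, which 11.3% of all promoters also held in some form. It held 2 E-boxes, at -207 and -142, a motif found in 68.7% of promoters. It had 0 matches to AP-1 (in 7.7% of promoters), EGR1 (9.4%), TATA box (11.5%), CAGCTG (17.9%) and GATA (10.3%). The PDZK1 window held 5 E-boxes, of which the one at -91 was CAGCTG. The STIL window held no match to any of them, which says only that these letters are not in it.

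The study addressed a path from circCSPP1 through hsa-miR-520h, a microRNA that pairs with mRNAs through its seed. Its mature sequence, at chr19:53742566-53742587 on the plus strand (RefSeq, GRCh38.p14), and the CMPK1 site that matches the seed are shown because they are where the design and these genes meet. Capitals mark bases 2 to 8 of the microRNA and the matching 7 bases of the site.
hsa-miR-520h: aCAAAGUGcuucccuuuagagu
CMPK1 site: aaaatcattgCACTTTGgtcagaaaaa

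The printed CMPK1 stretch lies at chr1:47377730-47377756 of GRCh38, plus strand, in exon 6 of 6. Its 7 matching bases, chr1:47377740-47377746, start at position 995 of a 3′ UTR of 2094 nt. The 3′ UTR of PDZK1IP1 (378 nt) and the longest ones of PDZK1 and STIL held 0 matches to 6 or 7 bases of the seed. TAL1 held 1 match to 6 bases. A match of 7 bases was present in 25.3% of the 12222 tested genes with an annotated 3′ UTR, and a match of 6 bases in 48.2%. A match is a run of letters and not a measured binding site.

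The deposited values are FPKM, fragments per kb of transcript length and per 1000000 sequenced fragments. The depth read from their steps was 28800000 to 36700000 fragments in lentivirus-NC and 28900000 to 34700000 in lentivirus-circCSPP1, so the groups overlapped in depth. Log2 fold changes are on the log2(FPKM + 1) scale, lentivirus-circCSPP1 over lentivirus-NC, which understates the change of low genes. limma was run on the 12322 genes that averaged 1 FPKM or more across the 6 libraries, and p-values were adjusted over all of them by the Benjamini-Hochberg method. At an adjusted p under 0.05, 11.4% of them (1399 genes) were called, 4.69% as higher (578) and 6.66% as lower (821) in lentivirus-circCSPP1. The lentivirus-circCSPP1 libraries differed with GC content, replicate 1 the most. Relative to the other libraries of the group, it was lower in genes with GC under 45% (median -0.41 on the log2 scale, 4348 genes). It was higher in genes with GC over 55% (median 0.28, 4014 genes). By the same measure replicate 2 departed the other way, by 0.30 and -0.19, and replicate 3 by 0.12 and -0.082.

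The epithelial markers KRT8, KRT18, EPCAM and CDH1 were all present at 1 FPKM or more. The luminal prostate genes KLK3, KLK2 and TMPRSS2 were at 0.07 FPKM or less in every library. Of 5 blood cell markers and 5 markers of the kidney proximal tubule, 0 reached a mean of 1 FPKM. Of 4 fibroblast markers 1 did, COL1A1, with 2.60 to 4.06 FPKM in lentivirus-NC against 0.99 to 1.36 FPKM in lentivirus-circCSPP1. In bulk RNA, fewer cells expressing a gene and less of its RNA per cell cannot be told apart.

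PDZK1IP1 was the member that differed most between the groups. In lentivirus-NC replicates 1, 2 and 3 it stood at 23.67, 27.77 and 28.46 FPKM. In lentivirus-circCSPP1 replicates 1, 2 and 3 it stood at 6.44, 3.86 and 4.80 FPKM. The lowest control library was thus far above the highest circCSPP1 library, and the groups did not overlap. The means were 26.6 ± 2.59 FPKM (SD, n = 3) in lentivirus-NC against 5.03 ± 1.31 FPKM (SD, n = 3) in lentivirus-circCSPP1, which makes the level 5.29-fold lower with circCSPP1. The log2 fold change was -2.21 (standard error 0.17, 95% interval -2.61 to -1.82).

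Among the 19727 genes, the share with a lower value than PDZK1IP1 was 76.5% to 79.7% in the lentivirus-NC libraries and 48.5% to 56.3% in the lentivirus-circCSPP1 libraries. It went from among the more abundant genes to about the middle of the table. Taking the longest coding transcript of 846 nt, its values stand for about 585 to 884 fragments per lentivirus-NC library and 113 to 175 per lentivirus-circCSPP1 library, so the lower level was still well covered. The highest of the circCSPP1 values was in replicate 1, the library that read high in GC-rich genes, and the transcript of PDZK1IP1 is 59.0% GC. After a correction for GC content and length, the log2 fold change of PDZK1IP1 was -2.20 (standard error 0.12). Leaving out each library in turn gave -2.38 to -2.07.

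The 4 epithelial markers, whose summed level was 1729 to 1801 FPKM in lentivirus-NC, summed to 715 to 854 FPKM in lentivirus-circCSPP1. KRT8 and KRT18, the keratins of simple epithelia, made up most of this sum. KRT8 stood at 1085 to 1138 FPKM in lentivirus-NC against 380 to 456 FPKM in lentivirus-circCSPP1, and KRT18 at 612 to 634 and 319 to 384 FPKM. The adhesion proteins EPCAM (19.5 to 21.3 and 10.6 to 13.7 FPKM) and CDH1 (9.81 to 11.5 and 2.44 to 3.41 FPKM) lay in the same order. The epithelial markers therefore moved with the groups in the same direction as PDZK1IP1, and their part in its lower level was not tested.

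**Figure D1:**
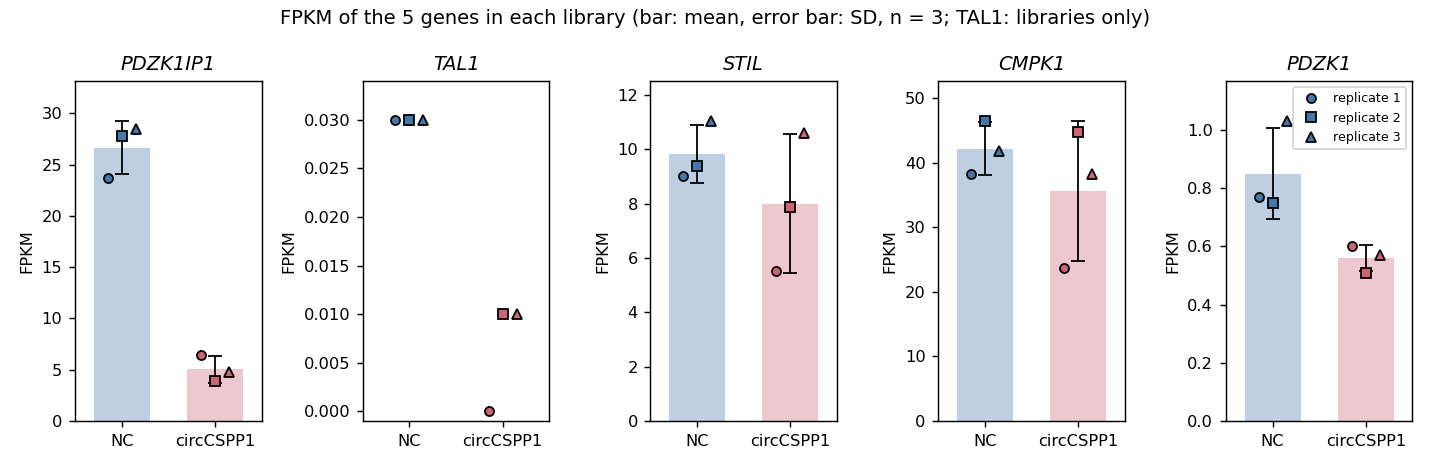
FPKM of the 5 genes in each library, 1 panel per gene with its own linear axis, for lentivirus-NC (blue) and lentivirus-circCSPP1 (red). Points are libraries, bars are means and error bars are SD (n = 3), with libraries only for TAL1. PDZK1IP1 separates from 23.67 or more to 6.44 or less, STIL and CMPK1 overlap between groups with circCSPP1 replicate 1 lowest, and PDZK1 and TAL1 are low throughout.

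PDZK1, the scaffold, was expressed at a low level. It stood at 0.77, 0.75 and 1.03 FPKM in lentivirus-NC and at 0.60, 0.51 and 0.57 FPKM in lentivirus-circCSPP1. Every control library was above every circCSPP1 library, by a small margin. The means were 0.850 ± 0.156 FPKM (SD, n = 3) and 0.560 ± 0.0458 FPKM (SD, n = 3), and the log2 fold change was -0.24 (standard error 0.075, 95% interval -0.42 to -0.065). PDZK1 had a mean under 1 FPKM and was not among the tested genes, so these values come from the fit with no filter. With no filter its adjusted p from limma was 0.10, and an exact two-sided permutation test gave p = 0.10, the smallest that 3 libraries against 3 allow. Its values stand for about 37 to 84 fragments per library. Whether reads from its near-identical pseudogene PDZK1P1 were kept apart is not known, so the level of PDZK1 is uncertain.

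The size of the PDZK1 difference depends on the constant added before the logarithm. It was -0.52 with 0.1 FPKM and -0.58 with 0.01 FPKM in place of 1. PDZK1IP1 exceeded PDZK1 in all 6 libraries. Its 2 neighbours on the chromosome that were tested did not pass an adjusted p of 0.05 in limma. GPR89A, which encodes a Golgi pH regulator and lies 0.2 kb away, stood at 14.6 ± 1.16 FPKM (SD, n = 3) in lentivirus-NC against 13.5 ± 1.36 FPKM (SD, n = 3) in lentivirus-circCSPP1 (log2 fold change -0.11, limma adjusted p = 0.59), and it has the near-identical copy GPR89B. CD160, a receptor of lymphocytes 11.3 kb away, stood at 2.28 ± 0.887 and 1.34 ± 0.0862 FPKM (SD, n = 3 each; log2 fold change -0.45, limma adjusted p = 0.18).

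TAL1, the nearest neighbour of PDZK1IP1, was close to 0 in every library. It was 0.03 FPKM in each of the 3 lentivirus-NC libraries and 0, 0.01 and 0.01 FPKM in lentivirus-circCSPP1. The groups did not overlap, but 3 fragments of its transcript correspond to 0.016 to 0.021 FPKM, and the circCSPP1 values are under that. About 4.3 to 5.5 fragments lie behind each control value and 0 to 1.7 behind each circCSPP1 value, so no fold is given. TAL1 also overlaps an antisense gene, AL135960.1, and whether counting used strand is not stated. DU145 is not a blood cell line, and GATA1, SPI1 and PTPRC, which mark blood lineages, were at 0.56 FPKM or less in every library.

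STIL, the centriole gene beyond TAL1, did not pass the test. It stood at 9.03, 9.37 and 11.03 FPKM in lentivirus-NC and at 5.51, 7.86 and 10.61 FPKM in lentivirus-circCSPP1. The groups overlapped, since circCSPP1 replicate 3 was above control replicates 1 and 2. Mean levels were 9.81 ± 1.07 and 7.99 ± 2.55 FPKM (SD, n = 3 each), and the log2 fold change of STIL was -0.30 (standard error 0.21, 95% interval -0.79 to 0.19, limma adjusted p = 0.39). The lowest value came from circCSPP1 replicate 1, and the STIL transcript is 42.1% GC. Without that library the log2 fold change was -0.087 (limma adjusted p = 0.67). Without circCSPP1 replicate 3, the highest of its group, it was -0.50 (limma adjusted p = 0.17). Over 17 alternatives the adjusted p ran from 0.17 to 0.67.

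CMPK1, the UMP-CMP kinase, was the most abundant of the 5 genes. It stood at 38.29, 46.44 and 41.76 FPKM in lentivirus-NC and at 23.68, 44.82 and 38.30 FPKM in lentivirus-circCSPP1. Apart from circCSPP1 replicate 1, the groups covered nearly the same range. Mean levels were 42.2 ± 4.09 and 35.6 ± 10.8 FPKM (SD, n = 3 each), and the log2 fold change of CMPK1 was -0.28 (standard error 0.22, 95% interval -0.79 to 0.23, limma adjusted p = 0.45). At 37.8%, its transcript has the lowest GC content of the members. Without circCSPP1 replicate 1 the log2 fold change was -0.020 (limma adjusted p = 0.90). Without circCSPP1 replicate 2, the highest of its group, it was -0.47 (limma adjusted p = 0.18). Over 17 alternatives the adjusted p ran from 0.15 to 0.90.

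CMPK1 is also the member with a 7-base match to the miR-520h seed, in the site printed above. Whether reads from its pseudogenes CMPK1P1 and CMPK1P2 were kept apart is not known. After the correction for GC content and length, the log2 fold change of CMPK1 was -0.21 (limma adjusted p = 0.15) and that of STIL -0.25 (limma adjusted p = 0.28). The intervals of both genes include 0. The values of circCSPP1 replicate 1 departed from the mean of the other libraries of its group by -0.78 in CMPK1, -0.64 in STIL and 0.49 in PDZK1IP1 on the log2 scale. By the same measure replicate 3 departed by 0.61 in STIL, and replicate 2 by 0.56 in CMPK1 and -0.43 in PDZK1IP1. The spread of the group was thus not confined to replicate 1.

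Of the 5 members, 3 were above the filter. PDZK1IP1 gets no test, since it was chosen on this contrast, and STIL and CMPK1, the other 2, did not pass an adjusted p of 0.05 in limma, which 11.4% of all tested genes did. The groups did not overlap in 3 of the 5 members, PDZK1IP1, PDZK1 and TAL1, beside 36.4% of the tested genes. This count cannot be weighed against that share. PDZK1IP1 was chosen on this contrast, and PDZK1 and TAL1 are not among the tested genes. All 5 means were lower in lentivirus-circCSPP1, in 3 members by amounts that overlapped between groups or rested on few fragments.

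Levels of genes can be set side by side in FPKM because it is per length, but it does not correct for GC content. In lentivirus-NC the order was CMPK1, PDZK1IP1, STIL, PDZK1 and TAL1, and no neighbours in that order overlapped. In lentivirus-circCSPP1 CMPK1 remained the highest, and PDZK1IP1 and STIL overlapped. PDZK1IP1 was above STIL in replicate 1 and below it in replicates 2 and 3. Replicate 1 read high in GC-rich genes, and the transcript of PDZK1IP1 is 59.0% GC against 42.1% in STIL.

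Within a library, the ratio of PDZK1IP1 to CMPK1 was 0.618, 0.598 and 0.682 in lentivirus-NC against 0.272, 0.0861 and 0.125 in lentivirus-circCSPP1. The ratio of PDZK1IP1 to STIL was 2.62, 2.96 and 2.58 in lentivirus-NC against 1.17, 0.491 and 0.452 in lentivirus-circCSPP1. Both ratios were lower in every circCSPP1 library than in every control library, and such ratios do not depend on the scaling of the library. They are not corrected for GC content, and within lentivirus-circCSPP1 both were highest in replicate 1, the library that read high in GC-rich genes. They averaged 0.633 ± 0.0436 and 0.161 ± 0.0980 (SD, n = 3 each) for CMPK1, and 2.72 ± 0.211 and 0.704 ± 0.403 (SD, n = 3 each) for STIL. They show that the difference between the groups was not equal for the genes of a ratio. PDZK1IP1 was chosen for its side of that difference.

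**Figure D2:**
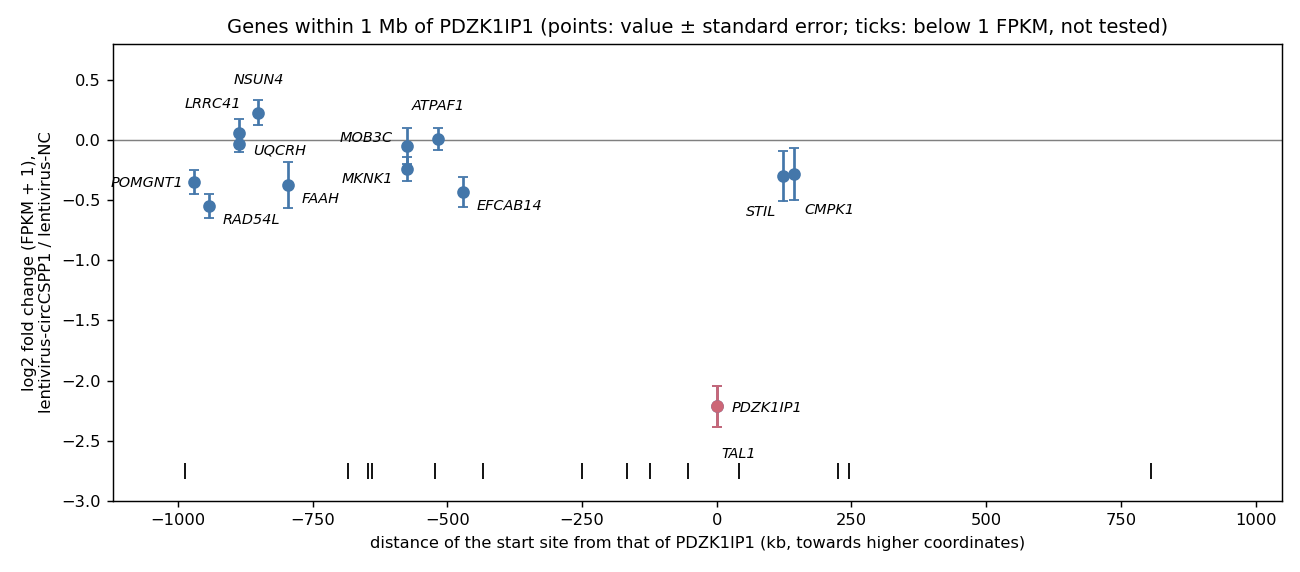
Log2 fold change (FPKM + 1) with its standard error for the tested genes within 1 Mb on each side of PDZK1IP1, by the distance of their start sites in kb, with ticks for genes below 1 FPKM. PDZK1IP1 stands at -2.21, and the 12 other tested genes lie between -0.55 and 0.23.

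Within 1 Mb on each side of PDZK1IP1 the table held 26 other genes, of which 12 were tested and 14 had a mean under 1 FPKM. Of the 12, 1 passed an adjusted p of 0.05 (11.4% of all tested genes did), and their log2 fold changes ran from -0.55 to 0.23 with a median of -0.26. Most of these values were below 0, with 9 lower and 3 higher, where the median of all tested genes was -0.03. The gene that passed was RAD54L, a motor protein of homologous recombination with its start at -943.4 kb from that of PDZK1IP1. It stood at 12.9 FPKM in lentivirus-NC against 8.53 FPKM in lentivirus-circCSPP1. Its log2 fold change was -0.55 (limma adjusted p = 0.017). It was called in 12 of 17 alternatives, and leaving out any control library or circCSPP1 replicate 3, or adding the replicate number as a block, ended the call, with adjusted p up to 0.090.

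Towards lower coordinates, the next tested gene from PDZK1IP1 was EFCAB14, a calcium-binding domain gene, after a gap of 464.5 kb. It stood at 12.96, 13.38 and 13.34 FPKM in lentivirus-NC against 8.11, 11.05 and 9.75 FPKM in lentivirus-circCSPP1. Its groups did not overlap, and its log2 fold change was -0.43 (limma adjusted p = 0.070). The genes between them were the cytochrome P450 family 4 cluster, fatty acid and drug oxidising enzymes. CYP4B1, CYP4A11, CYP4X1, CYP4Z1 and CYP4A22 had means from 0 to 0.08 FPKM in each group. Beyond CMPK1, the forkhead genes FOXE3 and FOXD2 were also under 1 FPKM, and the next tested gene was SPATA6, a sperm flagellum gene 916.5 kb from CMPK1 (log2 fold change -0.18, limma adjusted p = 0.52). PDZK1IP1 was therefore the one gene above 1 FPKM in a stretch bounded by EFCAB14 and STIL.

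Further genes of the region, of the partners and of the members' pathways were followed in lists written from general knowledge. In the 1p33 list, 7 of 22 genes were tested and 0 passed an adjusted p of 0.05 in limma, with 2 at an unadjusted p under 0.05, 0 without moderation of the variance and a median log2 fold change of -0.09. In the list around PDZK1 in 1q21, 17 of 22 genes were tested, 1 rose and 0 fell, with a median of -0.11. The gene that rose was POLR3C, a subunit of RNA polymerase III. It stood at 26.28, 24.41 and 27.18 FPKM in lentivirus-NC against 38.03, 41.17 and 38.55 FPKM in lentivirus-circCSPP1, with no overlap. Its log2 fold change was 0.58 (standard error 0.089, limma adjusted p = 0.0099), in the direction opposite to PDZK1. It was called in 15 of 17 alternatives, and not without control replicate 1 or 2 (adjusted p up to 0.063). Beside 11.4% of all tested genes, 0 of 7 and 5.88% of 17 were called in these regions, and with so few genes the shares are coarse.

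The scaffold list held NHERF proteins, which like PDZK1 bind membrane proteins through PDZ domains, ezrin with its relatives, and AKAP10. Of its 7 genes 6 were tested and 0 passed in limma, beside 11.4% of all tested genes, with 0 at an unadjusted p under 0.05, 0 without moderation of the variance and a median log2 fold change of 0.05. All of the tested ones were expressed well above PDZK1. SLC9A3R1, or NHERF1, stood at 45.7 ± 8.20 and 34.2 ± 8.83 FPKM (SD, n = 3 each; log2 fold change -0.42, limma adjusted p = 0.20). EZR, or ezrin, stood at 95.9 ± 8.40 and 114 ± 13.2 FPKM (SD, n = 3 each; 0.25, limma adjusted p = 0.18). PDZD3, also called NHERF4, was at 0.04 FPKM or less in every library. Without circCSPP1 replicate 1, 2 genes of the list were called.

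Of 20 membrane proteins reported to bind PDZK1IP1 or PDZK1, 8 were tested, and 1 fell and 0 rose (12.5%, beside 11.4% of all tested genes), with a median log2 fold change of 0.085. The one that fell was SCARB1, the HDL receptor that PDZK1 stabilises in liver. It stood at 87.26, 84.20 and 88.50 FPKM in lentivirus-NC against 71.65, 51.95 and 61.98 FPKM in lentivirus-circCSPP1, without overlap. Its log2 fold change was -0.49 (standard error 0.12, limma adjusted p = 0.041). The call is close to the threshold. It held in 8 of 17 alternatives, and leaving out any library but circCSPP1 replicate 1 ended it, with adjusted p up to 0.15. Kidney transporters of the list differed widely in level. SLC9A3 stood at 13.45 ± 1.17 FPKM in lentivirus-NC against 14.3 ± 1.59 FPKM in lentivirus-circCSPP1 (SD, n = 3 each; log2 fold change 0.077, limma adjusted p = 0.72). SLC22A5 stood at 17.3 ± 0.876 and 20.1 ± 2.16 FPKM (SD, n = 3 each; 0.21, limma adjusted p = 0.27). Others were near 0. The sodium-glucose cotransporter SLC5A2, which PDZK1IP1 activates, stood at 0.15 to 0.47 FPKM in lentivirus-NC against 0.12 to 0.18 FPKM in lentivirus-circCSPP1. The phosphate transporter SLC34A1 was at 0.08 to 0.10 FPKM in lentivirus-NC and at 0 in all 3 lentivirus-circCSPP1 libraries.

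The centriole list, the pathway of STIL, had all 17 genes tested and 0 past an adjusted p of 0.05 in limma, beside 11.4% of all tested genes. Of these, 4 had an unadjusted p under 0.05, and the median log2 fold change was -0.13. Without moderation of the variance 0 passed, and after the GC and length correction 5 did. PLK4, the kinase that starts centriole duplication and with which STIL forms a complex, stood at 12.8 ± 0.924 FPKM in lentivirus-NC against 10.2 ± 1.76 FPKM in lentivirus-circCSPP1 (SD, n = 3 each; log2 fold change -0.31, limma adjusted p = 0.20). SASS6, which forms the cartwheel, stood at 2.18 ± 0.217 and 2.70 ± 1.23 FPKM (SD, n = 3 each; 0.16, limma adjusted p = 0.70).

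Of 25 pyrimidine nucleotide genes, the pathway of CMPK1, 24 were tested, 2 rose and 2 fell (16.7%, beside 11.4% of all tested genes), with a median log2 fold change of -0.01. UPP1, uridine phosphorylase, which splits uridine to uracil, had the largest change in this list. It stood at 143.23, 123.00 and 135.61 FPKM in lentivirus-NC against 365.89, 307.15 and 295.23 FPKM in lentivirus-circCSPP1. The groups did not overlap, and its log2 fold change was 1.26 (standard error 0.10, limma adjusted p = 0.0015), called in 17 of 17 alternatives. CDA, cytidine deaminase, which turns cytidine to uridine, fell from 110.39, 105.53 and 114.81 FPKM to 72.20, 51.27 and 61.40 FPKM. Its log2 fold change was -0.84 (standard error 0.13, limma adjusted p = 0.0091), and it was called in 15 of 17 alternatives, with an adjusted p of 0.051 without control replicate 1.

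The other called genes of the pyrimidine list changed less. NME6, a nucleoside diphosphate kinase, rose from 20.1 ± 1.46 to 30.9 ± 3.11 FPKM (SD, n = 3 each; log2 fold change 0.59, limma adjusted p = 0.018). TYMS, thymidylate synthase, fell from 185 ± 11.1 to 138 ± 7.32 FPKM (SD, n = 3 each; -0.41, limma adjusted p = 0.020). Leaving out any control library or circCSPP1 replicate 3 ended the calls of NME6 (adjusted p up to 0.086) and TYMS (up to 0.097). CMPK2, the mitochondrial relative of CMPK1, was at 0.29 FPKM or less in every library.

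Of 19 genes of the TAL1 complex, its E-protein, LMO, LDB1 and GATA partners and their relatives, 10 were tested, 1 rose and 1 fell (20%, beside 11.4% of all tested genes), with a median log2 fold change of 0.04. LMO4, an adaptor of LIM domains, stood at 9.81 ± 0.499 FPKM in lentivirus-NC against 13.2 ± 0.607 FPKM in lentivirus-circCSPP1 (SD, n = 3 each; log2 fold change 0.40, limma adjusted p = 0.044). SSBP3, which stabilises LDB1, stood at 9.49 ± 0.972 and 6.51 ± 0.552 FPKM (SD, n = 3 each; -0.48, limma adjusted p = 0.043). Both calls are close to the threshold. LMO4 was called in 10 of 17 alternatives and not without any 1 library other than circCSPP1 replicate 1 (adjusted p up to 0.17). SSBP3 was called in 8 of 17, and not without any 1 control library or circCSPP1 replicate 3 (adjusted p up to 0.18).

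**Figure D3:**
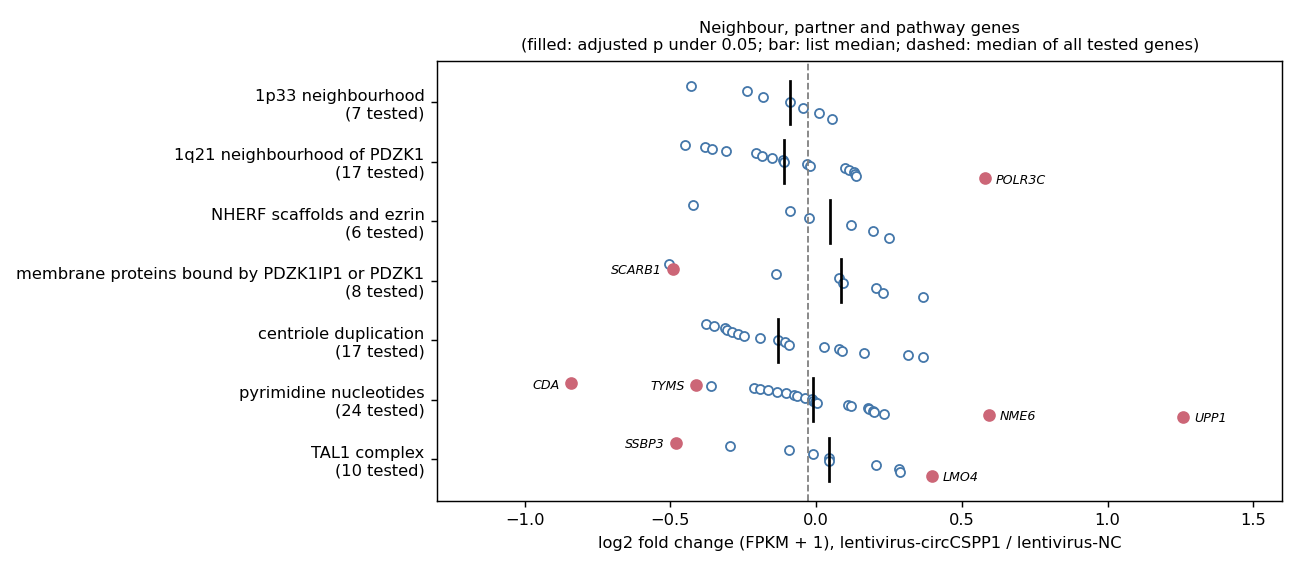
Log2 fold change (FPKM + 1) of each tested gene in the lists of neighbours, partners and pathways, 1 line per list. Filled points passed an adjusted p of 0.05, bars are list medians and the dashed line is the median of all tested genes. List medians lie between -0.13 and 0.085, and UPP1 (1.26) and CDA (-0.84) lie farthest out.

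The tested genes next lowest in log2 fold change after PDZK1IP1 are given as a description. AL136295.1, a gene known by its clone name, stood at 6.96 ± 4.03 and 1.26 ± 1.66 FPKM (SD, n = 3 each; log2 fold change -1.88). IL6, the inflammatory cytokine, stood at 19.1 ± 5.02 and 4.62 ± 0.672 FPKM (SD, n = 3 each; -1.81). B3GALT6, a galactosyltransferase that builds the linker of proteoglycans, stood at 16.6 ± 1.30 and 4.11 ± 0.519 FPKM (SD, n = 3 each; -1.79). That PDZK1IP1 comes before them is fixed by the way it was chosen.

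The genes whose profile over the 6 libraries was nearest to that of PDZK1IP1 were found by the root mean square difference of log2(FPKM + 1) after each gene's mean was subtracted. They were B3GALT6 (0.27), IGFBP4 (0.28), COL13A1 (0.31), CDH3 (0.32) and SLC22A31 (0.33). IGFBP4 binds insulin-like growth factors, COL13A1 is a collagen anchored in the membrane, CDH3 is P-cadherin of basal epithelium, and SLC22A31 belongs to the organic ion transporters. Each was lower in all 3 circCSPP1 libraries than in all 3 control libraries, as the choice by likeness makes them. IGFBP4 stood at 76.23, 71.20 and 77.15 FPKM in lentivirus-NC against 26.91, 19.57 and 21.47 FPKM in lentivirus-circCSPP1. CDH3 stood at 110.98, 105.18 and 107.60 FPKM in lentivirus-NC against 40.55, 30.62 and 33.44 FPKM in lentivirus-circCSPP1. All 5 had a smaller log2 fold change than PDZK1IP1, between -1.79 and -1.61, and the highest circCSPP1 value in IGFBP4, COL13A1, CDH3 and SLC22A31 was in replicate 1, as in PDZK1IP1.

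**Figure D4:**
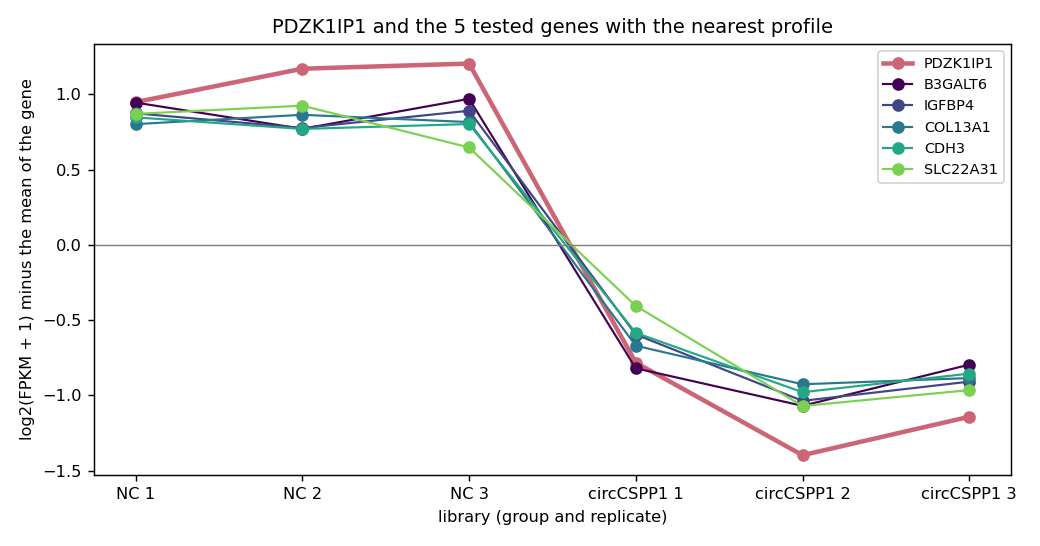
Centred log2(FPKM + 1) of PDZK1IP1 and the 5 genes nearest in profile, in each of the 6 libraries. The control libraries lie above 0 and the circCSPP1 libraries below 0 in all 6 genes, and PDZK1IP1 reaches the lowest point, in circCSPP1 replicate 2.

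**Figure D5:**
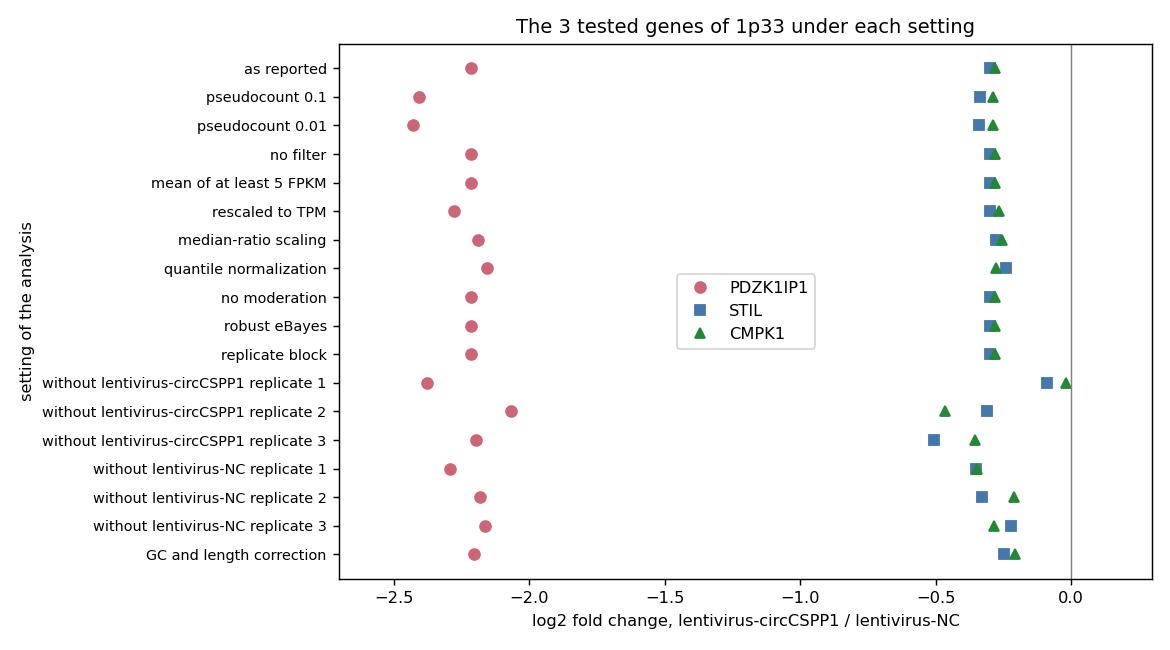
Log2 fold change of the 3 tested members, PDZK1IP1 (circles), STIL (squares) and CMPK1 (triangles), on the x axis for each setting of the analysis on the y axis, with 1 point per fit. PDZK1IP1 stays between -2.43 and -2.07, while STIL and CMPK1 approach 0 when circCSPP1 replicate 1 is left out.

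Across 17 alternatives the log2 fold change of PDZK1IP1 stayed between -2.43 and -2.07. STIL ran from -0.50 to -0.087 and CMPK1 from -0.47 to -0.020, and both were below 0 in 17 of 17. PDZK1 had a value in 11 alternatives, from -0.58 to -0.17. The ranges of STIL and CMPK1 reach close to 0.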

How the data were processed

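RNA-seq of 6 DU145 libraries was analysed, 3 of lentivirus-NC and 3 of lentivirus-circCSPP1, grouped by their labels. The authors selected polyadenylated RNA, read both ends of the fragments on an Illumina NovaSeq and deposited FPKM values of 19727 genes, rounded to 2 decimals. The submitters' processing notes name the build hg38; the aligner, counting program and annotation are not given in the sources used here. All value columns were used (0 left out). Count models do not apply to FPKM, and a gene's FPKM also depends on how much of its library other genes occupy.

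Values were taken to log2(FPKM + 1). Genes that averaged 1 FPKM or more entered a limma 3.58.1 fit under R 4.3.3 (lmFit, then eBayes with trend = TRUE, two-sided, without covariates), with Benjamini-Hochberg adjustment over all 12322, after the fit had been tested on simulated data. Depth was read from the FPKM steps of single-transcript genes shorter than 800 nt (47 to 76 values per library, 92.6% to 98.7% within 0.15 of a whole step). It sets the precision of low values, and fragment numbers and the limit of 3 fragments cover counting error only.

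The members and lists were chosen with earlier results of these data known. The text names the members, list genes past an adjusted p of 0.05 (at most 4 per list and direction), the nearest tested gene on each side of each member, the 5 genes nearest in profile to PDZK1IP1 and the next 3 lowest log2 fold changes. RAD54L, SLC9A3R1, EZR, AKAP10, PDZD3, SLC5A2, SLC34A1, SLC9A3, SLC22A5, CMPK2, PLK4 and SASS6 are not covered by the rule. Nor are the untested neighbours and the near-identical copies. All of these were picked once their values were known.

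Coordinates, transcript lengths, GC content and 3′ UTRs come from GENCODE release 29 on GRCh38, which may differ from the authors' annotation. Promoters and the microRNA come from RefSeq (GRCh38.p14), and 5 of 5 members were matched by symbol. Alternatives were pseudocounts of 0.1 and 0.01, all genes or those averaging 5 FPKM or more, TPM, median-ratio and quantile scaling, no moderation, robust eBayes, a replicate block and leaving out each library. Per-library loess correction for transcript GC and length (span 0.3) was chosen after seeing the data. Figures used matplotlib 3.10.9. Some prostate marker genes are not reported here.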

Additional observations from a re-analysis of the deposited data

How the results depend on the processing

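PDZK1IP1 kept its direction under 17 alternatives (-2.43 to -2.07; -2.38 to -2.07 when each library was left out). STIL (-0.50 to -0.087) and CMPK1 (-0.47 to -0.020) kept theirs without passing an adjusted p of 0.05. PDZK1 moved to -0.52 and -0.58 with pseudocounts of 0.1 and 0.01, ran from -0.28 to -0.17 when each library was left out, and was not computed for a mean of at least 5 FPKM, quantile normalization, no moderation, robust eBayes, the block or the GC and length correction. TAL1 has no fold under any setting. The cause of the changes below was not tested.

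The 1399 genes past an adjusted p of 0.05 became 834 without moderation and 3519 after the GC and length correction, where 51.5% were higher in place of 41.3%. They ranged from 293 (without control replicate 1) to 3514 (without circCSPP1 replicate 1), with 309 without control replicate 2, 404 without control replicate 3 and 460 without circCSPP1 replicate 3. The 1q21 list (1 gene) gave 2 with no filter and 3 after the correction. The TAL1 complex list (2) gave 0 with no filter, 1 in TPM, 1 with quantile normalization, 1 without moderation and 4 after the correction. The membrane protein list (1) gave 0 with median-ratio scaling, 2 with quantile normalization, 0 without moderation and 3 after the correction. The 1p33 list (0) gave 1 with quantile normalization and 1 after the correction. The pyrimidine list (4) gave 2 without moderation and 7 after the correction, and the centriole list (0) gave 5 after the correction. With each library left out, the counts ran from 0 to 1 in the 1p33 list, 0 to 3 in the 1q21 list, 0 to 2 in the scaffold list, 0 to 3 in the membrane protein list, 0 to 2 in the centriole list, 1 to 6 in the pyrimidine list and 0 to 2 in the TAL1 complex list.

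Libraries of the same replicate number deviated together only weakly, with correlations of 0.073, 0.007 and 0.057. Those of unlike numbers ran from -0.067 to 0.036. With 3 libraries per group, such values cannot decide whether the numbers pair the libraries. With the replicate block 923 genes passed, the membrane protein list gave 0 and the TAL1 complex list 0, STIL had an adjusted p of 0.27 and CMPK1 of 0.28 in limma, and PDZK1IP1 stayed at -2.21. FPKM rounded to 2 decimals limits TAL1 and other genes near 0, and 3 libraries per group limit every test.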
